A study of Mus musculus with 12 samples.

Results

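The response to acute exercise was measured in plantaris muscle that lacks REDD1. The arrays whose titles name REDD1 knockout mice were used, 3 from exercised and 3 from sedentary animals, which are 6 of the 12 arrays in the series. The other 6 arrays hold wild-type plantaris from the same pair of conditions, and they served to estimate the spread and to test whether the exercise response differed between genotypes. Every label describes a male mouse aged 12 weeks that had been without food for 3 hours, and the muscle was taken under isoflurane. The exercised knockout mice had completed 1 bout of aerobic exercise and were sampled 1 hour later, and the sedentary knockout mice had not exercised. The labels do not say how or in which cells the deletion was made, and they give no litter, batch or pooling. Replicate numbers follow the order of the series and pair no samples. Nothing beyond the labels says that the 3 samples of a group are separate animals, so the p-values measure the spread between these samples.

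REDD1 is the protein encoded by Ddit4. Cells make it under stress, and it restrains mTORC1, a kinase complex that promotes protein synthesis and growth. Ddit4 transcription is raised by glucocorticoids, low oxygen, energy shortage and muscle contraction. A bout of endurance exercise is known to induce, within hours, immediate-early transcription factors, the coactivator gene Ppargc1a that promotes mitochondrial biogenesis, and genes of glucose handling and stress protection. The plantaris is a calf muscle that works with the gastrocnemius in running.

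The deposited values are on a log2 scale, so a difference of 1 is a doubling, and array medians lay between 4.52 and 4.6. Ddit4 was lower in the 3 sedentary knockout arrays (5.32, 5.44 and 5.08) than in the 3 sedentary wild-type arrays (6.13, 5.83 and 6.02), without overlap. The position of the probes relative to the deleted part is not given, so the remaining signal does not show whether a shortened transcript was measured. The muscle label was borne out by the levels: the 9 defining skeletal muscle genes, Acta1, Ckm, Des, Myot, Mb, Ttn, Neb, Ryr1 and Cacna1s, lay between 11.1 and 13.6 on the 6 knockout arrays, and their median exercise difference was 0.01. Sedentary replicate 3 stood apart from the other knockout arrays in its matrix and fibroblast markers. There the mean level of the matrix and fibroblast marker list was 0.88 above its average over the 12 arrays, against 0.13 and -0.14 in sedentary replicates 1 and 2 and -0.23, -0.20 and -0.26 in the exercised replicates. Its Schwann cell and slow-fibre lists were also the highest of the sedentary arrays, at 0.74 and 0.51. Knockout exercised replicate 2 was close to it for Schwann cell markers (0.68), and exercised replicate 3 for slow-fibre genes (0.49).

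Exercise changed 38 of the 13747 genes tested in knockout muscle, which is 0.276% (limma, Benjamini-Hochberg adjusted p under 0.05). Of these, 33 were higher after exercise (0.24% of genes tested) and 5 were lower (0.0364%). At these shares a short gene list would most often hold no call, and the list counts below are to be read against them. The rises included regulators of energy metabolism, nutrient carriers, stress and ubiquitin-linked genes and transcription factors, and the falls included a pair of vascular receptor genes, Kdr and Lpar4. At least a 2-fold rise was measured for 16 genes, and no gene fell by 2-fold. A further 19 genes changed by at least 1.5-fold but under 2-fold, and 3 by less. In all 38 the exercised and sedentary arrays did not overlap, as was also the case for 7.11% of all genes tested with exercised arrays higher and 6.76% with exercised arrays lower. The typical riser lay 1.01, 1.07 and 0.84 above the sedentary mean in exercised replicates 1, 2 and 3. The 38 comprise 35 named genes and 3 predicted gene models.

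**Figure D1:**
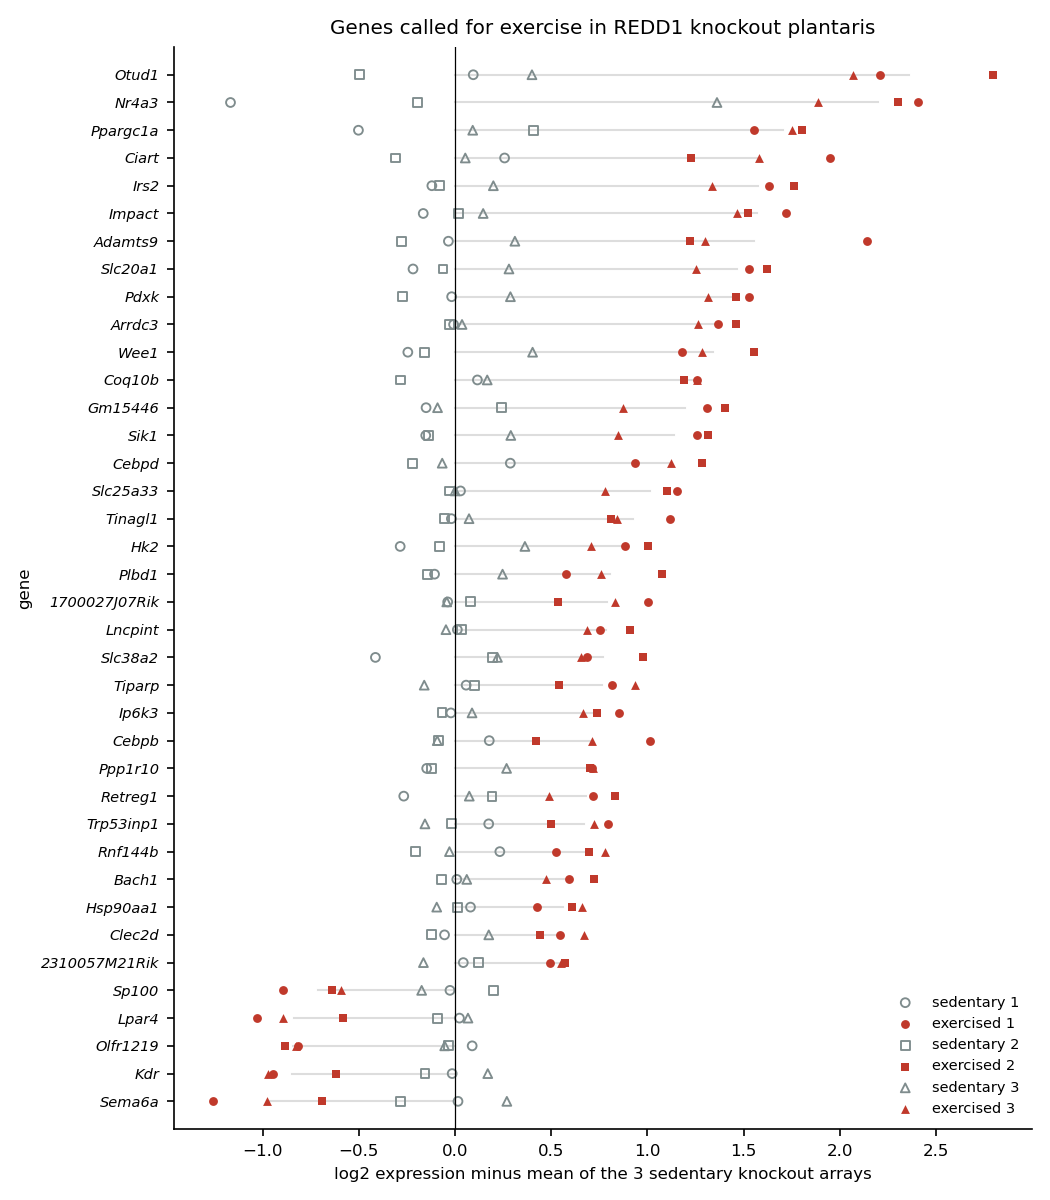
Log2 expression of the 38 genes called for exercise in knockout plantaris, on the horizontal axis as the difference from the mean of the 3 sedentary knockout arrays, with 1 gene per line, open grey symbols for sedentary arrays, filled red symbols for exercised arrays and a grey line to the exercised mean. Otud1 has the longest line (2.36), Nr4a3 has the widest spread among sedentary arrays, and in no gene do open and filled symbols overlap.

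Promoter sequence is shown for the genes that rose by at least 2-fold and share the E-box, the letters CACGTG, which read the same on both strands. The sequences are RefSeq's for GRCm38.p6, from windows reaching 250 bases before to 50 bases after each annotated start. The E-box is in capitals, each stretch is written 5′ to 3′ on the gene's own strand, and positions count from the start base as 0. Of the 12 genes that rose by at least 2-fold and have a window, 7 hold an E-box, against 11.3% of the genes tested. Nr4a3, Ppargc1a, Adamts9 and Arrdc3 are among those with a window and no E-box.

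Otud1, chr2:19657650-19657709, plus strand: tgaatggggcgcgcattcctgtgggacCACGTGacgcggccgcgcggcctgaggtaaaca
Ciart, chr3:95882240-95882371, minus strand: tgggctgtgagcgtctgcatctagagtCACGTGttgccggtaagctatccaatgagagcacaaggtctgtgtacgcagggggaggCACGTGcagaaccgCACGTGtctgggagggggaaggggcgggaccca
Irs2, chr8:11008941-11009000, minus strand: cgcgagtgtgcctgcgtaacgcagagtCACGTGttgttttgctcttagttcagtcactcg
Slc20a1, distal, chr2:129198571-129198630, plus strand: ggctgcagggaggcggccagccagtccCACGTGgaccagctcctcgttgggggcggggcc
Slc20a1, proximal, chr2:129198724-129198772, plus strand: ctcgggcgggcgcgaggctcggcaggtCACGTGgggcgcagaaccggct
Pdxk, chr10:78465096-78465155, minus strand: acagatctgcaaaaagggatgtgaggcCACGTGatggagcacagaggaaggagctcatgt
Coq10b, chr1:55052665-55052724, plus strand: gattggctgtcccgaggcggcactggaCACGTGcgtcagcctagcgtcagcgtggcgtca
Slc25a33, chr4:149774268-149774302, minus strand: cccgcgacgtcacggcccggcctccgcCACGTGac

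Ciart holds 3 E-boxes within 132 bases, and Slc20a1 holds 2, at positions -175 and -22. In Otud1 and Slc25a33 the E-box shares letters with TGACG, the core of the cAMP response element, on the same strand. For Slc25a33 the last letter of TGACG is the start base, just past the end of the printed stretch. Over all 33 risers, 26 had a RefSeq window, and 11 of these genes (42.3%) held an E-box, against 11.3% of the genes tested. Counted by window, the share was 31.4% of the risers' 35 windows, 9.61% of those of the genes tested and 7.15% of all 32851 windows in the table. TGACG on either strand was found for 14 of the 26 risers (53.8%) and 33.2% of genes tested. GAANNTTC, a heat shock element, was found for 5 risers (19.2%) and 6.91% of genes tested. The whole cAMP response element TGACGTCA, which contains TGACG, occurred in 1 riser, Retreg1, and in 3.22% of genes tested. TGANTCA, an AP-1 site, was found for 2 risers and 6.42% of genes tested. AAAGGTCA, the NBRE motif of NR4A receptors, and the CArG box were found for no riser and for 1.14% and 1.66% of genes tested. The median GC content was 63.7% in the risers' windows, 60.3% in those of the genes tested and 52.7% in all windows. Of the 5 fallers, 4 had a window, and none of these held an E-box or TGACG, against 11.3% and 33.2% of genes tested. TGANTCA was found for 1 of the 4, Olfr1219, against 6.42% of genes tested. With only 4 genes these counts say little. The fallers' windows had a median GC content of 47.7%. These matches describe the letters of the windows and were not tested.

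Among the gene lists used, the regulators of energy metabolism hold the most calls. In the list of contraction-responsive metabolic regulators, 5 of 26 members tested rose, against 0.24% of genes tested, and none was called lower. The lists were chosen with earlier results of these data known, so this count is a description. Of the 26, 20 had a difference above 0 and 6 below, and the median difference was 0.25, against -0.00 for all genes tested. Ppargc1a encodes PGC-1α, the transcriptional coactivator of mitochondrial biogenesis. It measured 8.70, 9.61 and 9.29 in the sedentary arrays and 10.75, 11.003 and 10.95 in the exercised arrays. The groups were 1.14 apart at their closest, and the rise was 3.25-fold (1.70 ± 0.20 on the log2 scale, limma's standard error, n = 3 against 3, adjusted p = 0.001). Irs2, the adaptor that carries the insulin receptor's signal to phosphoinositide 3-kinase, measured 7.02, 7.06 and 7.34 at rest and 8.77, 8.90 and 8.48 after exercise. All exercised arrays lay above all sedentary ones, and the difference was 1.57 ± 0.14 (adjusted p = 0.000107).

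Arrdc3 encodes an arrestin-domain protein that takes part in the trafficking of beta-adrenergic receptors. Its sedentary values, 8.82, 8.80 and 8.86, were among the tightest of the called genes, and its exercised values were 10.19, 10.29 and 10.09. The groups were well apart, with a difference of 1.36 ± 0.13 (adjusted p = 0.000135). Sik1, a salt-inducible kinase of the cAMP pathway that acts on CREB coactivators, measured 6.73, 6.74 and 7.17 and then 8.14, 8.20 and 7.73. It rose by 1.14 ± 0.15 (adjusted p = 0.00264), with exercised replicate 3 the lowest of its group. Hk2, the hexokinase that traps glucose in muscle, measured 9.50, 9.71 and 10.15 at rest and 10.67, 10.79 and 10.49 after exercise. The gap between its groups was 0.34 and its rise 0.86 ± 0.14 (adjusted p = 0.0105). Members of this list that did not pass included Slc25a25, a mitochondrial ATP-Mg/phosphate carrier (1.07 ± 0.25, adjusted p = 0.106), Ppara, the fatty acid receptor (0.59 ± 0.13, adjusted p = 0.0798), and Vegfa, the angiogenic growth factor (0.45 ± 0.14, adjusted p = 0.299). Angptl4, an inhibitor of lipoprotein lipase, had a difference below 0 that did not pass (-0.53 ± 0.21, adjusted p = 0.431).

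Mitochondrial and nutrient-handling genes rose beside them. Slc20a1, a sodium-phosphate cotransporter, measured 6.70, 6.85 and 7.20 in sedentary arrays and 8.44, 8.53 and 8.17 in exercised arrays. The groups did not overlap, and the difference was 1.47 ± 0.14 (adjusted p = 0.000135). Pdxk, the kinase that converts vitamin B6 to its active cofactor, measured 5.78, 5.53 and 6.09 and then 7.33, 7.26 and 7.11. It rose 2.70-fold (1.43 ± 0.17, adjusted p = 0.001). Slc38a2, a sodium-coupled carrier of neutral amino acids, measured 9.66, 10.27 and 10.30 at rest and 10.76, 11.05 and 10.73 after exercise. Its rise was 0.77 ± 0.14 (adjusted p = 0.0313), with sedentary replicate 1 well below the rest of its group. These are the 3 members called among the 18 tested of the amino acid, phosphate, lactate and vitamin handling list. Over all genes tested 0.24% were called higher. The list's median was 0.19, none of its members was called lower, and 5 had a difference below 0.

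Coq10b, a coenzyme Q-binding protein of mitochondria, measured 6.88, 6.48 and 6.93 in sedentary muscle and 8.02, 7.95 and 8.02 in exercised muscle. Its exercised arrays were nearly equal, and the rise was 1.23 ± 0.16 (adjusted p = 0.00159). Slc25a33, the mitochondrial carrier of pyrimidine nucleotides, measured 7.57, 7.51 and 7.54 and then 8.70, 8.65 and 8.33. It rose by 1.01 ± 0.13 (adjusted p = 0.00214). Among the oxidative phosphorylation subunits none of the 30 tested was called, against 0.276% of all genes tested. Their differences ran from -0.02 to 0.29, and 29 were above 0. Their median of 0.11 became 0.07, with 24 of 30 above 0, when sedentary replicate 3 was left out, and was 0.17 without sedentary replicate 1. The 9 housekeeping controls tested had a median of 0.15, with 6 above 0 and none called. It was 0.10 without sedentary replicate 3. List medians up to about that size were thus also seen in controls. Among 21 glycolysis and glycogen genes, Hk2 alone was called, against 0.24% of all genes called higher. The median was 0.05, which became -0.01 after quantile normalisation and 0.08 without sedentary replicate 1.

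Genes linked to ubiquitin and to stress included the largest rise of all. Otud1 encodes a deubiquitinase of the ovarian tumour family. It measured 7.41, 6.82 and 7.71 in the sedentary arrays and 9.52, 10.11 and 9.38 in the exercised arrays. The groups were 1.67 apart, and the rise was 5.12-fold (2.36 ± 0.33, adjusted p = 0.00348). It was the only one of 29 deubiquitinase genes tested that was called, against 0.24% of all genes called higher. The list's median was 0.09, which became 0.04 without exercised replicate 3. Impact encodes a protein that binds GCN1 and restrains the amino acid sensor kinase GCN2. It measured 7.17, 7.35 and 7.48 and then 9.05, 8.86 and 8.80, clear of each other by 1.32. The difference was 1.57 ± 0.13, and its adjusted p of 7.19e-05 was the smallest of all genes.

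Of 24 genes in the list for unfolded protein and integrated stress responses Impact was the 1 called, against 0.24% of all genes called higher. The median was 0.10, which became 0.16 without sedentary replicate 3 and 0.05 without sedentary replicate 1. The next by unadjusted p, Dnajb9 (0.48 ± 0.11, adjusted p = 0.105), Hspa5 (0.40 ± 0.10, adjusted p = 0.128) and Asns (0.43 ± 0.12, adjusted p = 0.223), did not pass. In the heat shock list all 20 members tested had a difference above 0, from 0.07 to 1.98, with a median of 0.22. Of these, 11 had exercised arrays above all sedentary ones, against 7.11% of genes tested, but Hsp90aa1, a cytosolic chaperone, was the 1 that passed the test. It measured 5.74, 5.67 and 5.57 and then 6.08, 6.27 and 6.32 (0.56 ± 0.11, adjusted p = 0.0481). Without sedentary replicate 3 the list's median was 0.18, and Hsp90aa1 did not pass either (adjusted p = 0.164). The inducible chaperone gene Hspa1b measured 6.05, 5.88 and 6.24 at rest and 8.0, 8.21 and 7.89 after exercise. Its groups were far apart, yet its difference of 1.98 ± 0.42 did not pass (adjusted p = 0.0679), nor did that of its paralogue Hspa1a (1.64 ± 0.36, adjusted p = 0.0773). Both standard errors come from the spread of all 12 arrays, wild-type arrays included, and not from the knockout arrays alone. The signal of these near-identical copies cannot be cleanly told apart on an array.

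Further stress-linked and signalling genes rose by smaller amounts. Retreg1, a receptor for autophagy of the endoplasmic reticulum, rose by 0.68 ± 0.13, Trp53inp1, a p53-induced autophagy protein, by 0.67 ± 0.12, and the ubiquitin ligase gene Rnf144b by 0.67 ± 0.12. Trp53inp1 was the 1 member called of 18 p53 target and growth arrest genes, against 0.24% of all genes called higher. None of the 24 ubiquitin ligase and autophagy genes of muscle wasting was called, against 0.276% of all genes tested. Trim63, which encodes MuRF1, differed by 0.86 ± 0.23 (adjusted p = 0.17) and Fbxo32, which encodes atrogin-1, by 0.54 ± 0.17 (adjusted p = 0.3). Wee1, the kinase that holds CDK1 inactive, measured 5.0, 5.08 and 5.64 and then 6.42, 6.79 and 6.53. Its rise was 1.34 ± 0.17 (adjusted p = 0.00159). Ip6k3, a muscle-enriched inositol hexakisphosphate kinase, rose by 0.75 ± 0.11. Tiparp, a mono-ADP-ribosyltransferase, rose by 0.76 ± 0.15, Ppp1r10, a nuclear partner of protein phosphatase 1, by 0.71 ± 0.12, and the long noncoding RNA Lncpint by 0.78 ± 0.14.

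Among transcription factors, Nr4a3, an orphan nuclear receptor of the NR4A family, had the largest difference and the least even baseline. Its sedentary values were 5.62, 6.59 and 8.15, and its exercised values 9.19, 9.09 and 8.67. The groups were 0.53 apart, with sedentary replicate 3 close to the exercised arrays. The rise was 4.59-fold (2.20 ± 0.40, adjusted p = 0.0313), and 2.88 (adjusted p = 3.58e-05) without sedentary replicate 3. With the spread taken from the 6 knockout arrays alone, its adjusted p was 0.155. Nr4a3 was the only member called of 27 immediate-early genes, against 0.24% of all genes called higher. Of the 27, 25 had a difference above 0 and 15 did not overlap, all 15 with exercised arrays higher, against 7.11% of genes tested. An unadjusted p under 0.05 with exercised arrays higher was found for 13 of the 27, against 4.31% of genes tested, and the list's median was 0.45. Without sedentary replicate 3, Nr4a3, Klf4 and Klf6 were called.

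Several immediate-early genes were close to the threshold or variable. Klf4, a zinc-finger factor, measured 6.39, 6.30 and 6.79 and then 7.25, 7.28 and 7.12 (0.72 ± 0.14, adjusted p = 0.0503). Btg2, an antiproliferative early gene, measured 6.94, 6.72 and 6.19 and then 8.25, 7.98 and 7.76, without overlap, yet its difference of 1.38 ± 0.41 did not pass (adjusted p = 0.248). Fosl2, an AP-1 subunit, differed by 0.80 ± 0.18 (adjusted p = 0.1). With Klf4, the genes next to the threshold were Clic4 (0.68), Mylip (-0.69), Rbp7 (0.75) and Lmod2 (0.47), each also at an adjusted p of 0.0503.

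The C/EBP factors rose together within the glucocorticoid receptor target list. Cebpd measured 5.50, 4.99 and 5.14 at rest and 6.14, 6.49 and 6.33 after exercise (1.11 ± 0.18, adjusted p = 0.0109). Cebpb measured 7.27, 7.0 and 7.0 and then 8.10, 7.51 and 7.80 (0.72 ± 0.13, adjusted p = 0.0382). Neither gene's groups overlapped, and exercised replicate 2 was the lowest of its group for Cebpb. The list's median was 0.40 over 22 genes, and 14 of them did not overlap with exercised arrays higher, against 7.11% of genes tested. Tsc22d3, which encodes the glucocorticoid-induced leucine zipper, differed by 0.60 ± 0.13 (adjusted p = 0.0735), and the metallothionein gene Mt2 by 0.62 ± 0.18 (adjusted p = 0.245). Without sedentary replicate 3 the list's median was 0.31, and Cebpd alone was called (adjusted p = 0.128 for Cebpb).

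Ciart, a circadian repressor also called Chrono, measured 6.37, 5.80 and 6.17 in sedentary muscle and 8.06, 7.34 and 7.69 in exercised muscle. It rose 3.00-fold (1.58 ± 0.24, adjusted p = 0.00806) with no overlap. Of 17 clock genes tested Ciart was the 1 called, against 0.24% of all genes called higher. The list's median was 0.03, which became 0.15 without sedentary replicate 3. Nfil3 differed by 0.70 ± 0.16 (adjusted p = 0.0929), Per1 by 0.42 ± 0.18 (adjusted p = 0.481) and the repressor gene Nr1d1, encoding REV-ERBα, by -0.83 ± 0.24 (adjusted p = 0.222). Bach1, a haem-binding repressor of antioxidant genes, rose by 0.59 ± 0.11 (adjusted p = 0.0428).

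Adamts9 and Tinagl1 encode secreted proteins. Adamts9, a metalloprotease that cleaves proteoglycans, measured 6.35, 6.10 and 6.69 and then 8.52, 7.60 and 7.68. The rise was 2.94-fold (1.55 ± 0.24, adjusted p = 0.0099), with exercised replicate 1 well above the other arrays. Tinagl1, a matricellular protein, measured 7.58, 7.54 and 7.67 and then 8.71, 8.41 and 8.44 (0.92 ± 0.11, adjusted p = 0.00159). The remaining named risers were Plbd1, a phospholipase-like protein of lysosomes (0.80 ± 0.15), and Clec2d, a C-type lectin of the immune system (0.55 ± 0.10).

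The falls were few and moderate. Kdr encodes VEGF receptor 2, the main receptor of VEGF-A on endothelium. It measured 7.80, 7.66 and 7.98 in sedentary arrays and 6.87, 7.20 and 6.84 in exercised arrays. The groups were 0.46 apart, and Kdr fell by 0.84 on the log2 scale, with a standard error of 0.12 (adjusted p = 0.00492). Sema6a, a transmembrane semaphorin, measured 6.56, 6.26 and 6.82 and then 5.29, 5.86 and 5.57, and fell by 0.98, the largest fall (standard error 0.16, adjusted p = 0.0168). Lpar4, a lysophosphatidic acid receptor of vessels, measured 5.65, 5.54 and 5.70 and then 4.6, 5.05 and 4.74, and fell by 0.83 (standard error 0.14, adjusted p = 0.013). For both genes every exercised array was below every sedentary array.

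Sema6a, Lpar4 and the riser Adamts9 were the 3 genes called among 28 vascular guidance genes tested. Over all genes tested 0.24% were called higher and 0.0364% lower. The list's median was -0.11. Without sedentary replicate 3, Adamts9 was the only one of the 28 called and the median was -0.05, and without sedentary replicate 1 the median was -0.19. Next in that list were Efnb2, the arterial ephrin ligand (-0.65 ± 0.14, adjusted p = 0.0594), and Aplnr, the apelin receptor (-0.76 ± 0.18, adjusted p = 0.106), which did not pass. Kdr was the 1 gene called of 19 endothelial markers, against 0.0364% of all genes called lower. In that list 16 of the 19 had a difference below 0, and 14 without sedentary replicate 3. The median was -0.19, which became -0.10 without exercised replicate 1, and the mean level by array was 0.05, 0.07 and 0.12 in sedentary and -0.19, -0.01 and -0.16 in exercised muscle. The difference for Kdr was larger than those of the vessel genes Pecam1 (-0.21 ± 0.10), Cdh5 (-0.29 ± 0.09) and Vwf (-0.46 ± 0.15), none of which passed. In whole muscle, fewer cells of a type and less RNA per cell cannot be told apart.

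Sp100, a nuclear body protein induced by interferon, measured 6.59, 6.81 and 6.44 and then 5.72, 5.97 and 6.02, without overlap. It fell by 0.71 (standard error 0.12, adjusted p = 0.0251). Sp100 was the 1 gene called of 23 interferon-stimulated genes, against 0.0364% of all genes called lower. Of the 23, 18 had a difference below 0, and the median of -0.17 became -0.29 without sedentary replicate 3 and -0.12 without sedentary replicate 1. Oasl2, an antiviral gene, differed by -0.54 ± 0.14 (adjusted p = 0.153). The olfactory receptor gene Olfr1219 measured 5.89, 5.77 and 5.75 and then 4.99, 4.92 and 4.98, and fell by 0.84 (standard error 0.14, adjusted p = 0.013).

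**Figure D2:**
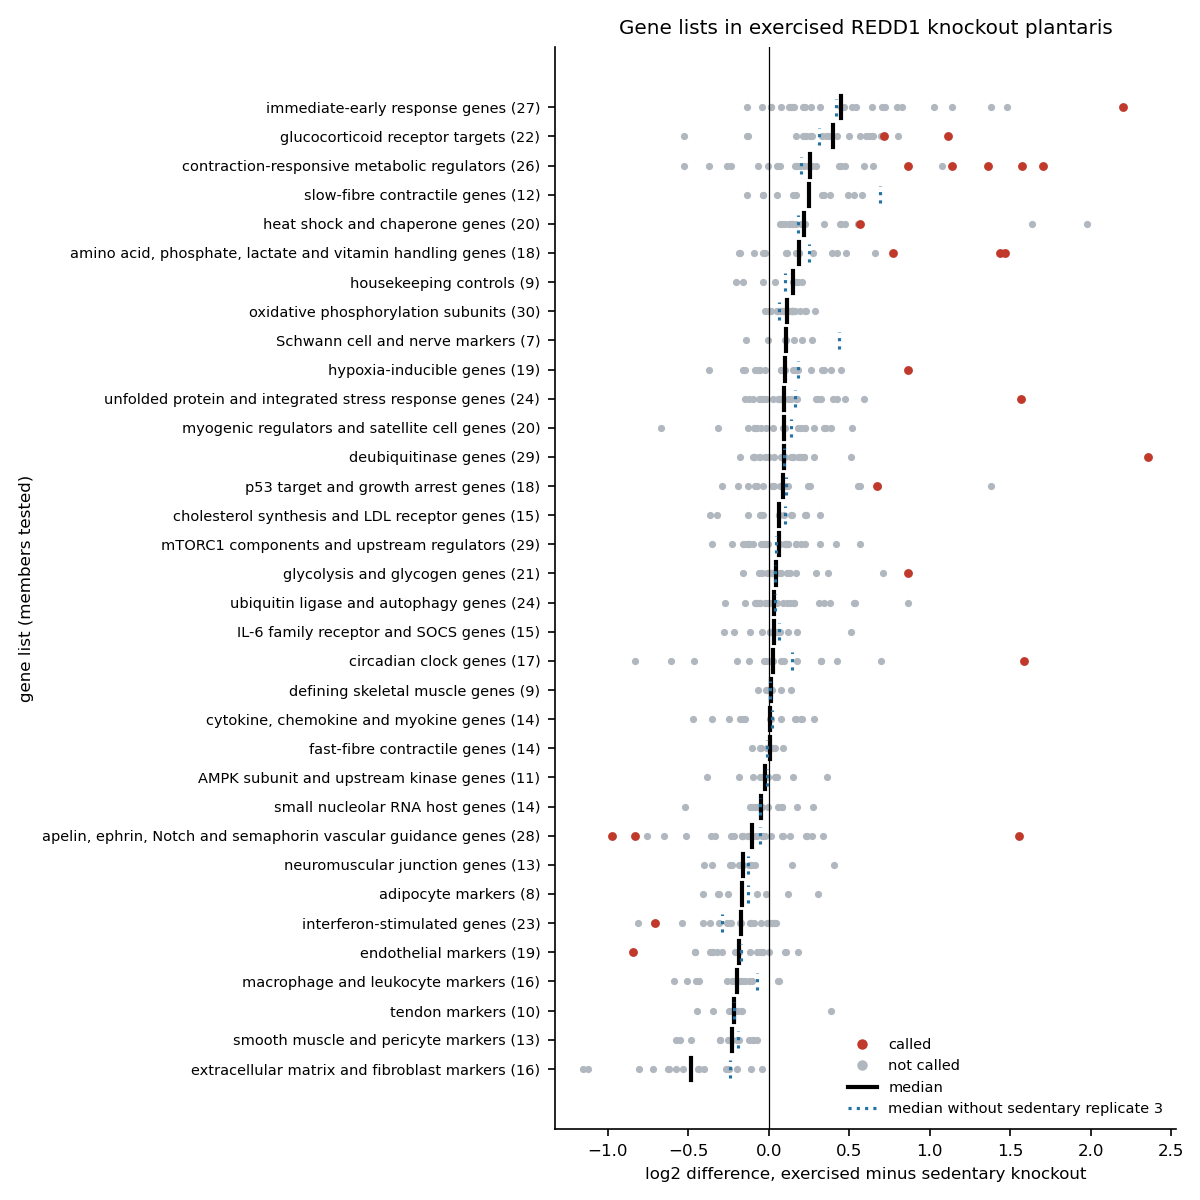
Log2 difference, exercised minus sedentary knockout, for the members tested of each gene list, with 1 point per gene, red where called, a black bar at the median and a dotted blue bar at the median without sedentary replicate 3. The immediate-early (0.45) and glucocorticoid receptor target (0.40) medians are the highest, the extracellular matrix median (-0.49) is the lowest and becomes -0.24 without that array, and the slow-fibre median goes from 0.25 to 0.69.

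The list for the pathway that REDD1 acts on had no call. Over all genes tested 0.276% were called, and no call in a list as short as those of this paragraph is near that share. None of 29 mTORC1 components and upstream regulators passed, and 15 had a difference above 0 and 14 below. The median was 0.06, which became 0.01 without exercised replicate 2. By unadjusted p the leading members were Sesn1, a leucine-sensing sestrin (0.57 ± 0.16, adjusted p = 0.205), and Eif4ebp1, the translation repressor that mTORC1 phosphorylates (0.42 ± 0.12, adjusted p = 0.205). Transcript levels do not report the activity of the complex. The AMPK list had no call among 11 genes, with a median of -0.02, which became 0.05 without exercised replicate 1 and -0.08 without exercised replicate 2. There were also no calls among 15 IL-6 receptor and SOCS genes, 14 cytokine and myokine genes, 15 cholesterol genes, 14 small nucleolar RNA host genes and 13 neuromuscular junction genes (median -0.16). In the myogenic list of 20, the myogenic factor gene Myod1 differed by -0.67 ± 0.14 (adjusted p = 0.0679), and none passed. Among 19 hypoxia-inducible genes the 1 call was again Hk2, against 0.24% of all genes called higher.

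Ddit4 itself remained variable in the knockout after exercise. Its values went from 5.32, 5.44 and 5.08 to 6.46, 5.72 and 6.77, which do not overlap, and the difference of 1.04 ± 0.22 did not pass (adjusted p = 0.0679). In wild type the corresponding difference was 2.70. The test of the difference of effects gave -1.66 (95% interval -2.33 to -1.0, unadjusted p = 8.38e-05), and adjusted over all genes its p was 0.633.

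Levels of other marker lists are given beside the falls, and no gene in the lists of this part was called. The matrix, smooth muscle and pericyte, leukocyte, tendon and adipocyte medians lay below 0, and the slow-fibre and Schwann cell medians above 0. All 16 extracellular matrix and fibroblast markers tested had a difference below 0 (median -0.49), 9 did not overlap with exercised arrays lower, against 6.76% of genes tested, and none was called. At an unadjusted p under 0.05, 11 of the 16 were lower after exercise, against 4.61% of genes tested. Col3a1, a fibrillar collagen gene, measured 9.24, 8.82 and 10.65 at rest and 8.29, 8.48 and 8.57 after exercise. Its highest array was sedentary replicate 3, and its difference went from -1.12 ± 0.31 (adjusted p = 0.205) to -0.59 without that array. The list's median without it was -0.24, with 14 of 16 below 0.

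Smooth muscle and pericyte markers had 13 of 13 differences below 0 (median -0.23), and none was called. Their mean level was 0.09, 0.07 and 0.23 in sedentary and -0.16, -0.13 and -0.12 in exercised arrays, without overlap. Pdgfrb, the pericyte receptor for PDGF-B, differed by -0.58 ± 0.14 (adjusted p = 0.106). Macrophage and leukocyte markers had a median of -0.20, which became -0.07 without sedentary replicate 3 and -0.40 without sedentary replicate 2. Tendon markers had a median of -0.22, with and without sedentary replicate 3, and -0.13 without sedentary replicate 1. The fast-fibre genes had a median of 0.01, which became -0.01 without sedentary replicate 3. The slow-fibre median of 0.25 became 0.69 without that array and 0.06 without sedentary replicate 2. Schwann cell markers had a median of 0.11, which ranged from -0.23 without exercised replicate 2 to 0.44 without sedentary replicate 3. Adipocyte markers had a median of -0.16 over 8 genes, which was -0.31 without sedentary replicate 1 and close to 0 without sedentary replicate 2. Only 3 of 11 neutrophil markers and 1 of 8 red cell markers were bright enough and named singly, so these cells were hardly measured. The part of these markers in the called genes was not tested.

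**Figure D3:**
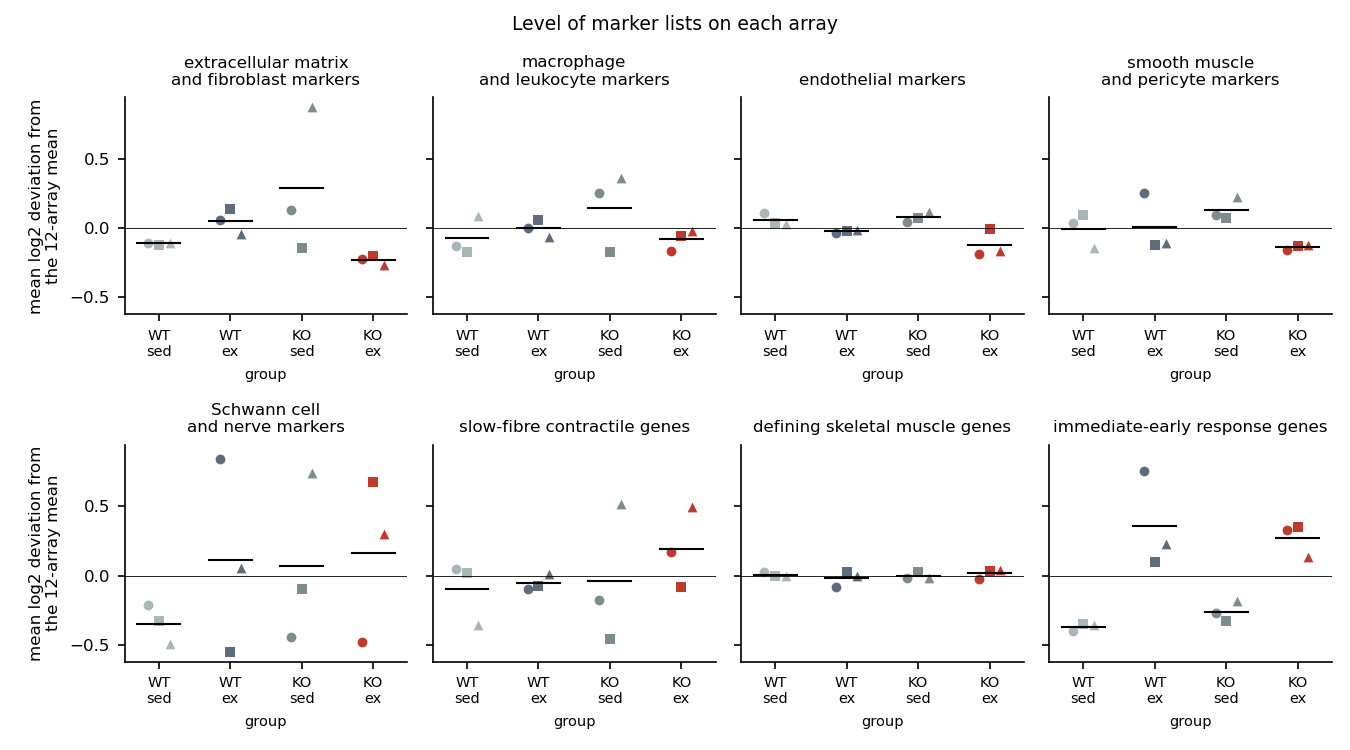
Mean level of 8 gene lists on each of the 12 arrays, as the log2 deviation from the 12-array mean, in panels by list, with 1 point per array (circle, square and triangle for replicates 1, 2 and 3) and a bar at the group mean. The knockout sedentary triangle stands at 0.88 for matrix markers, the defining skeletal muscle genes stay near 0 on all arrays, and the immediate-early genes are higher in every exercised array than in every sedentary one.

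Comparison with wild type tested whether the exercise effect differed between genotypes. No gene passed for the difference of effects (0 of 13747, 0%, limma), and an analysis of variance without moderation also called 0. At an unadjusted p under 0.05 there were 620 genes, 4.51% of those tested. In wild type 78 genes (0.567%) were called for exercise, 20 of which are among the 38 of the knockout. The 18 called in the knockout and not in wild type are therefore not shown to be particular to the knockout. For 28 of the 38 the 95% interval of the difference of effects included 0. The intervals reached 0.42 to each side at the median over the 38 genes, so smaller differences could not be resolved for a typical gene. These intervals are for 1 gene at a time. Adjusted over all genes, larger differences did not pass either, among them -0.86 for Olfr1219 (limma, adjusted p = 0.997).

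For most of the largest responses no difference between genotypes was resolved. The difference of effects, knockout minus wild type, was 0.04 (95% interval -0.95 to 1.02) for Otud1, 0.09 (-1.13 to 1.30) for Nr4a3, 0.17 (-0.22 to 0.57) for Impact and 0.16 (-0.27 to 0.59) for Irs2. For Ppargc1a it was 0.39 (-0.21 to 1.0) and for Kdr -0.08 (-0.45 to 0.28). The intervals for Otud1 and Nr4a3 are wide enough to hold a near 2-fold difference in either direction. The effect was larger in the knockout, with an interval that left out 0, for 9 of the 38. These 38 genes were chosen by the knockout effect, which is one side of this difference, so that count is a description. In Plbd1 the effects were 0.80 in the knockout and 0.08 in wild type, a difference of 0.72 (0.29 to 1.16). In Clec2d they were 0.55 and 0.04, a difference of 0.51 (0.20 to 0.83), and in Ppp1r10 0.71 and 0.20, a difference of 0.51 (0.14 to 0.87). The others of the 9 were Slc25a33, Retreg1, Sema6a, Olfr1219 and 2 predicted models. Plbd1 averaged 7.33 in sedentary knockout and 8.21 in sedentary wild type, and 8.14 and 8.29 after exercise. The same sedentary means were 9.76 and 9.98 for Clec2d, with 10.31 and 10.01 after exercise. For Ppp1r10 they were 6.57 and 6.83, with 7.28 and 7.03 after exercise. The difference between genotypes at rest was not tested.

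Sik1 was the 1 called gene with a smaller effect in the knockout by that measure. Its effect was 1.14 in the knockout and 1.72 in wild type, a difference of -0.58 (-1.04 to -0.11, unadjusted p = 0.0179). Among all genes, the smallest unadjusted p after that of Ddit4 was for Mt2, which differed by 0.62 in the knockout and 2.00 in wild type (-1.37, -1.93 to -0.82). Its adjusted p was 0.633. Mt2 is in the glucocorticoid receptor target list. That list's mean level was 0.04, -0.07 and -0.17 in sedentary knockout and -0.41, -0.57 and -0.41 in sedentary wild-type arrays. After exercise it was 0.37, 0.33 and 0.28 in the knockout and 0.30, 0.12 and 0.20 in wild type. A difference of effects takes in the resting levels as well as the exercised ones, and the part of the resting levels was not tested. In the test of the difference of effects, the glucocorticoid receptor target list had a median of -0.19, with 16 of 22 genes below 0. At an unadjusted p under 0.05 there were 6 of the 22, against 4.51% of all genes. Without knockout sedentary replicate 3 these counts were 20 and 7, against 3.87% of all genes. The immediate-early median was -0.22, with 21 of 27 below 0 and 2 at that p. The heat shock median was 0.14, with 4 of 20 below 0 and 1 at that p. The matrix markers differed in the same test by a median of -0.57, with 12 of 16 at an unadjusted p under 0.05. Without knockout sedentary replicate 3 these became -0.38 and 7 of 16, against 3.87% of all genes.

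**Figure D4:**
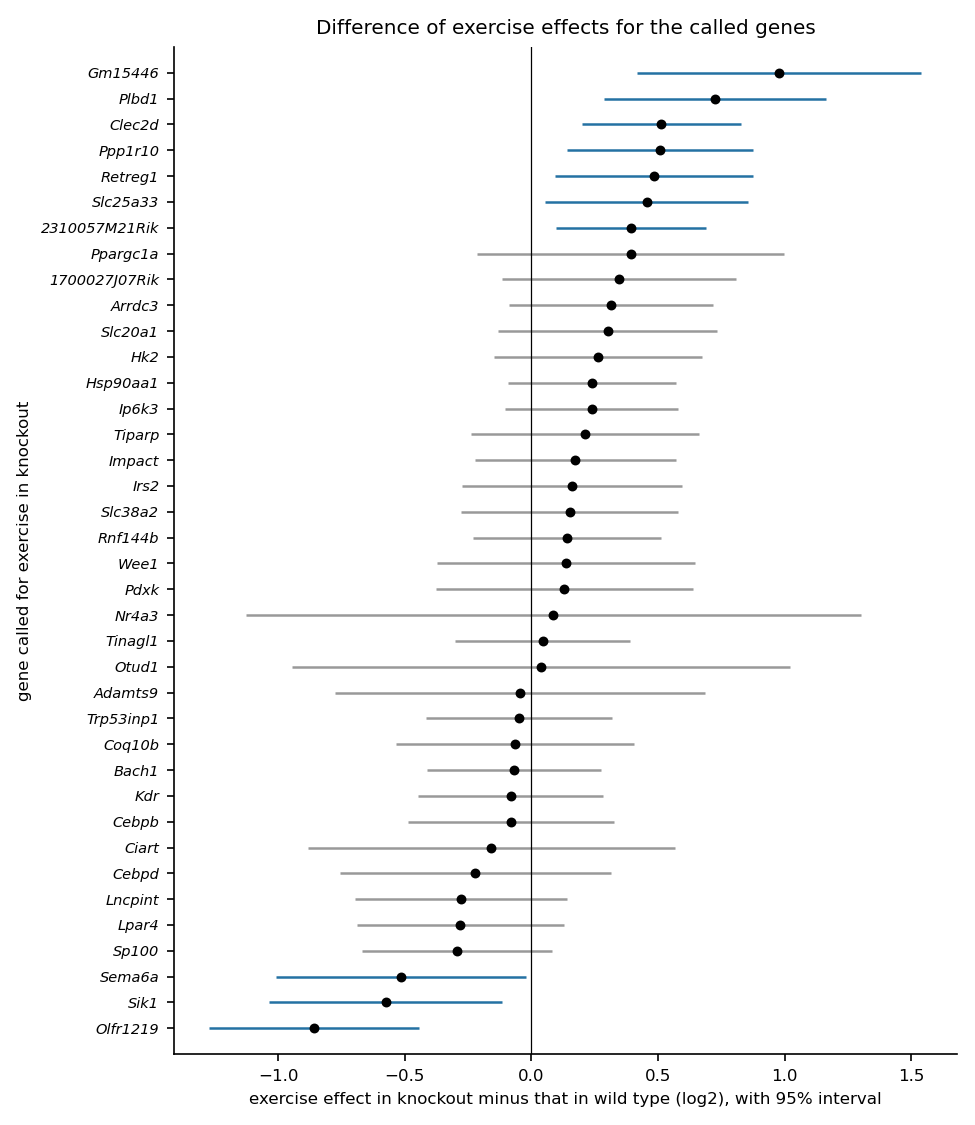
Exercise effect in knockout minus that in wild type (log2) for each of the 38 genes called in knockout, with points for the estimate and horizontal lines for the 95% interval, blue where the interval leaves out 0. A predicted gene model and Plbd1 lie farthest to the right, Olfr1219 farthest to the left, and 28 grey intervals include 0.

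Of the 35 named genes, 13 passed in each of the 12 fits that left out 1 array: Otud1, Ppargc1a, Irs2, Impact, Slc20a1, Pdxk, Arrdc3, Wee1, Coq10b, Sik1, Slc25a33, Tinagl1 and Kdr. The other 22 lost the call in at least 1 fit and kept their direction in all 12. Where a call was lost, the log2 difference was 0.732 to 1.14 times its value with all arrays. Leaving out a wild-type array leaves the knockout difference as it was and alters only the spread. Ciart and Ip6k3 lost it without exercised replicate 1 (both at an adjusted p of 0.0571). Adamts9 lost it without sedentary replicate 1 or 2 (0.0567 and 0.0522), Cebpd without exercised replicate 3 or sedentary replicate 2 (0.0657 and 0.0552), and Hk2 without exercised replicate 1 or sedentary replicates 1 or 2 (0.0522 to 0.0571). Nr4a3 lost it without any of the exercised arrays, sedentary replicates 1 or 2, or wild-type sedentary replicate 2 (0.0594 to 0.151). Among the fallers, Sema6a and Lpar4 lost it without exercised replicates 1 or 3 or sedentary replicates 1 or 3 (0.075 to 0.0873 and 0.0628 to 0.084). Sp100 lost it without exercised replicates 1 or 3 or sedentary replicates 1 or 2 (0.0598 to 0.131), and Olfr1219 without exercised replicates 1 or 3 or sedentary replicate 1 (0.0571 to 0.075).

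The smaller risers depended on more arrays. Trp53inp1 lost the call in 4 fits and Plbd1 in 4, Slc38a2 and Ppp1r10 in 5, Lncpint, Rnf144b and Clec2d in 6, Retreg1 and Tiparp in 7, Bach1 in 8, Cebpb in 9 and Hsp90aa1 in 10. Their adjusted p when lost ran from 0.0502 for Retreg1, without wild-type sedentary replicate 3, to 0.208 for Tiparp and Hsp90aa1, without exercised replicate 3. By array, the named calls lost were 19 without exercised replicate 1, 9 without exercised replicate 2, 18 without exercised replicate 3, 17 without sedentary replicate 1, 15 without sedentary replicate 2 and 10 without sedentary replicate 3. Among wild-type arrays they were 9 without sedentary replicate 2, 4 without sedentary replicate 3, 2 each without sedentary replicate 1, exercised replicate 2 and exercised replicate 3, and 0 without exercised replicate 1.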

How the data were processed

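RNA of 12 plantaris samples was labelled with biotin and hybridised to whole-transcript arrays, per the labels' protocols. The authors' deposited table holds 1 log2 value for each transcript cluster and array, a scale taken from the range of the values. The log base, background correction and normalisation are not given in the sources used here. The submitters' processing notes name Partek. Of 41345 clusters, the platform annotation gives 1 gene symbol for 23521, more than 1 for 1814 and no symbol for 16010. The cluster with the highest mean stood for a gene, and genes above the table median of 4.56 in at least 3 arrays were tested (13747).

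Groups were compared in R 4.3.3 with limma 3.58.1 (1 mean per group over 12 arrays, 8 residual degrees of freedom, eBayes with trend), two-sided. A gene was called at a Benjamini-Hochberg adjusted p under 0.05. Values after ± are limma's standard errors, and list levels are mean deviations from the 12-array mean. The script was tested on simulated data. The number of arrays limits the precision. Genes were named if called, among the 6 members of a list with the smallest unadjusted p after its called members, next to the threshold, or among the 10 smallest p for the difference of effects. The contrasts and gene lists were chosen with earlier results of these data known. Alternatives were other filters, scalings, variance models, cluster summaries, array weights and leaving out each array. Coordinates are RefSeq's, since no build is named for the array.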

Additional observations from a re-analysis of the deposited data

How the results depend on the processing

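The number of genes called for exercise in the knockout (38) was 25 from the 6 knockout arrays alone, 24 without the intensity trend, 83 with array weights and 0 in an analysis of variance without moderation, where 1124 genes had an unadjusted p under 0.05. Testing all transcript clusters together, an alternative chosen after seeing the data, called 12 with 1 symbol, and 0 of 1048 clusters with several symbols or 7072 with none. Other filters, scalings and cluster summaries gave 32 to 47. Leaving out 1 array gave 16 to 71: 16 without exercised replicate 1, 19 without exercised replicate 3, 20 without sedentary replicate 1 and 71 without wild-type exercised replicate 1. That wild-type array had the lowest array weight, 0.366. Its immediate-early mean level was 0.76, against 0.09 and 0.23 in wild-type exercised replicates 2 and 3. Of the 35 named genes, 19 passed from the 6 knockout arrays alone, 23 without the trend and 34 with array weights. The difference of effects gave 0 in each setting that could fit it, which the 6 knockout arrays alone could not. No called gene changed direction in any of these settings. Of 754 list medians, 27 moved by more than the spread between replicates, and 9 lists changed sign, each with a median close to 0 or, for the Schwann cell markers, 0.11. No paired analysis was possible because the labels give no replicate numbers shared between groups.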
